A study of Mus musculus with 9 samples.

Results

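Toxic and protective stimulation of NMDA receptors were set against each other in mouse hippocampal neurons, by comparing the miRNA profiles of 3 NMDA-treated and 3 bicuculline-treated cultures directly. These are 6 of the 9 arrays of the series, and the untreated control arrays had no part in the comparison. All cultures were of hippocampal neurons from C57BL/6 mice, prepared at postnatal day 1 and kept for 10 days in vitro. Per the labels, the NMDA group received 20 µM NMDA for 4 h and the bicuculline group 50 µM bicuculline for 4 h. The study's own text is not uniform here. The legend to its array results gives the same 20 µM as the labels, and its methods give a range that starts there. Its results text names a higher NMDA concentration given with glycine, and its methods a short NMDA exposure followed by washing. Dose and duration of the NMDA treatment are therefore taken from the labels only. According to the methods, the replicates came from independent cell preparations. The members are the 611 mouse miRNAs among the 650 miRNAs of the array, the others being viral.

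NMDA is an agonist of the NMDA class of glutamate receptors. Added to the bath, it reaches receptors inside and outside synapses, and sustained activation of the latter is known to kill neurons. Bicuculline blocks GABA-A receptors, which releases the network from inhibition, evokes bursts of action potentials and activates receptors at synapses, a form of activity known to favour neuronal survival. A miRNA is a short RNA that guides silencing proteins to messenger RNAs, mainly by pairing of its seed, bases 2 to 8, with the target. Production of miR-132 and miR-212, a pair processed from one activity-induced transcript under control of the transcription factor CREB, is a known response of neurons to synaptic activity.

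Of the 181 miRNAs tested, 16 differed between both treatments at a limma adjusted p under 0.05 (8.84%). Of these, 15 were higher after NMDA (8.29% of those tested) and 1, miR-212, was higher after bicuculline (0.552%). Only 4 of the 15 were well above background, as defined below, on all 6 arrays. The others entered the test only through the NMDA arrays, so the counts of both directions cannot be weighed against each other. The sequences of the miRNAs that differed are shown first, as what the probes were designed to read. A mature sequence was found for 12 of the 16 in the RefSeq table of build GRCm38.p6, and it is printed 5′ to 3′ with the seed in capitals. No sequence is printed for miR-689, miR-466f-3p, miR-714 and miR-1897-5p. For miR-494, miR-466i, miR-212 and miR-132 the 3p arm of the table was taken.

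The first group, higher after NMDA, holds runs of alternating bases:
miR-1187: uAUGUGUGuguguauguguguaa
miR-574-5p: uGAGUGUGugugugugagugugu
miR-467f: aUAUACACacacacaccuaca
miR-466i: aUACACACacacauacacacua

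Those with the letters GGAGG, also higher after NMDA:
miR-671-5p: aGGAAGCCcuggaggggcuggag
miR-1895: cCCCCGAGgaggacgaggagga
miR-1904: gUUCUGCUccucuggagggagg
miR-1892: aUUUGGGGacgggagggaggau
miR-705: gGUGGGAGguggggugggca

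The remaining pair higher after NMDA for which a sequence was found holds neither feature:
miR-690: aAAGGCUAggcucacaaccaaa
miR-494: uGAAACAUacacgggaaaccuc

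miR-212, higher after bicuculline, has the same seed as miR-132, shown for comparison:
miR-212: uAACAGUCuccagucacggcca
miR-132: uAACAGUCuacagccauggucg

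Among the 11 of the 15 with a sequence, 2 held UGUGUG, 2 held ACACAC and 5 held GGAGG, read on the miRNA strand itself. No carrier was counted under more than 1 of these 3 motifs. In the whole RefSeq table of 1674 mature mouse sequences, UGUGUG was present in 1.67%, ACACAC in 0.657% and GGAGG in 5.14%. ACACAC and GGAGG were picked after the sequences had been seen, so these shares describe the set and test nothing. Of the 32 miRNAs that were tested, not called and found in the table, 1 held ACACAC (miR-362-3p, log2 difference 0.09) and 1 held GGAGG (miR-188-5p, 0.35), and none held UGUGUG. The median share of G was 40.9% in the 11 and 22.2% in the 32. Array names are old, so that only 44 of the 181 tested miRNAs (24.3%) could be given a sequence, and a comparison of composition over all tested miRNAs was void. The seeds of the 12 called miRNAs with a sequence differed from one another, and miR-132 was the only other miRNA on the array, among those with a sequence, found to share one.

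Levels are given as percent of the array scale. The scale is the 75th percentile of the signal over probes well above background on all 6 arrays, so 100% is the brightness of a probe at that percentile. A probe was well above background where the scanner software marked at least 50% of its spots so. Before taking log2, signals below a floor of 7.45% of the scale were set to it. Log2 differences are NMDA minus bicuculline, with the standard error (SE) from limma. The brightness of one miRNA's probe was not set against another's. Because the RNA came from whole cultures, fewer cells of a type and less RNA per cell cannot be told apart.

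Neuronal identity fitted the label. All 13 neuron-enriched miRNAs, among them miR-124, miR-9 and miR-128, were tested, and their summed signal was 4275% to 4512% of the scale on NMDA arrays and 4338% to 4650% on bicuculline arrays. miR-451, miR-144, miR-486, miR-133a and miR-206, markers of blood and muscle, and miR-142-3p, miR-142-5p, miR-223, miR-155 and miR-150, markers of immune cells, were well above background on 0 of the 6 arrays. The muscle marker miR-1 was well above background on all 6 arrays, at 12.5% to 15.3% of the scale, the immune marker miR-146a on 5, the endothelial miR-126-3p on 4 and the muscle marker miR-133b on 2. Of the 6 miRNAs listed as glial markers, miR-21 and miR-338-3p were tested. That list summed to 219% to 245% of the scale on NMDA arrays and 233% to 260% on bicuculline arrays. The cultures are therefore not shown to be free of glia. The listed miR-219, miR-338-5p, miR-143 and miR-145 were well above background on 0 of the 6 arrays. Of these, miR-143 and miR-145 mark smooth muscle and pericytes, so their absence says nothing about glia. On the arrays as a whole, 166 to 221 mouse miRNAs were well above background per array. Arrays of one group correlated at 0.989 to 0.995 for NMDA and at 0.985 to 0.991 for bicuculline over the 158 miRNAs measured on all 6 arrays, against 0.950 to 0.972 between groups. NMDA 1, NMDA 2 and bicuculline 1 shared one slide, and NMDA 3, bicuculline 2 and bicuculline 3 the other, so each slide held both groups.

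In 4 of the 15 miRNAs higher after NMDA, the signal was well above background on all 6 arrays, so that a level was measured on both sides. miR-689 read 271%, 425% and 393% on the 3 NMDA arrays and 24.4%, 31.3% and 34.5% on the 3 bicuculline arrays. Every NMDA array lay far above every bicuculline array, and the difference was 3.58 (SE 0.20), or 12-fold (limma adjusted p = 3.54e-05). miR-671-5p, a miRNA known to cleave the circular RNA Cdr1as, read 39.1%, 52.6% and 50.8% after NMDA against 9.89%, 4.80% and 12% after bicuculline. Its bicuculline arrays spread widely, bicuculline 2 lying under the floor, but did not reach the NMDA arrays, and the difference was 2.30 (SE 0.19, limma adjusted p = 1.99e-04). It is read by 4 probes, and these gave differences from 1.58 to 2.30.

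miR-1895 read 60.3%, 77.3% and 88.7% after NMDA and 13.6%, 18.3% and 26.0% after bicuculline. The groups did not overlap, and the 4.00-fold difference (log2 2.00, SE 0.25) had a limma adjusted p of 0.00125. For miR-494, a member of the large imprinted Dlk1-Dio3 miRNA cluster, the NMDA arrays gave 54.8%, 56.6% and 58.5% and the bicuculline arrays 18.6%, 27.9% and 29.6%. This miRNA was the steadiest of the 4 between NMDA arrays, and its difference was 1.19 (SE 0.18, limma adjusted p = 0.00305).

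Repeat-like miRNAs formed the next group, and their signal after bicuculline was at or near the background. miR-574-5p read 60.4%, 92.2% and 93.4% after NMDA and 7.19%, 7.30% and 11.7% after bicuculline. Of its bicuculline arrays 2 were well above background, and the difference was 3.22 (SE 0.24, limma adjusted p = 1.13e-04). miR-1187 read 36.3%, 58.6% and 57.6% after NMDA and 4.23%, 3.1% and 4.38% after bicuculline. On no bicuculline array was it well above background, which leaves a bound, at least 7.39-fold higher after NMDA (limma adjusted p = 8.26e-05). Such a bound sets the NMDA mean against the lowest signal that was well above background on each bicuculline array, or the probe's own signal where that was higher. The p printed beside a bound belongs to the floored difference. In 7 of the 16 called miRNAs all bicuculline arrays were at the floor. Their floored bicuculline values were equal, so their SE and limma p hold no spread between bicuculline arrays and can be too small. Where only some bicuculline arrays were at the floor, as in miR-574-5p, miR-690 and miR-1897-5p, part of that spread is lost too.

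miR-466, miR-467 and miR-669 are families of many near-identical copies, most of which lie in an intron of the Sfmbt2 gene, and probes may not separate all of them. miR-467f read 28.1%, 41.8% and 49.3% after NMDA and 3.88%, 4.40% and 4.76% after bicuculline. All bicuculline values lay under the floor, 1 of them marked well above background, so the size of the difference is set by the floor. It was 2.38 (SE 0.20, limma adjusted p = 1.93e-04) at the floor used and 3.16 at a floor 0.5 times as high. Signals of miR-466i were 15.7%, 21.7% and 24.2% after NMDA against 1.81%, 1.81% and 1.97% after bicuculline, which gives a bound of at least 3.01-fold (limma adjusted p = 6.49e-04). Signals of miR-466f-3p were 16.2%, 25.4% and 27.7% against 2.43%, 1.69% and 3.82%, a bound of at least 3.35-fold (limma adjusted p = 0.00118). For both miRNAs no bicuculline array was well above background. Of the 39 family members on the array only these 3 could be tested. All 3 passed the filter only through the NMDA arrays, where they were high, so their common direction carries no weight, and with all 611 miRNAs tested miR-466i and miR-466f-3p were no longer called (limma adjusted p = 0.0894 and 0.143).

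**Figure D1:**
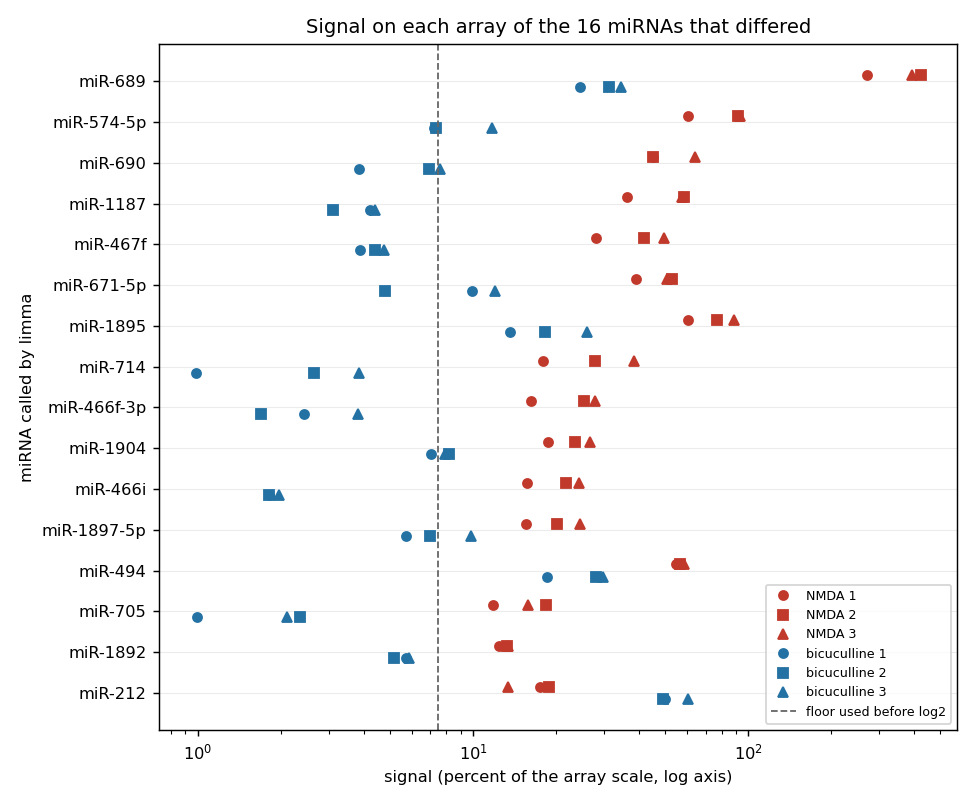
Signal of each of the 16 miRNAs that differed on each of the 3 NMDA (red) and 3 bicuculline (blue) arrays, in percent of the array scale on a log axis; marker shape gives the replicate and the dashed line the floor of 7.45%. In every one of the 16 the red and blue points stand apart, miR-212 alone has blue to the right of red, and in 7 all blue points lie left of the floor.

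Among the GGAGG carriers not yet described, miR-1904 read 18.7%, 23.5% and 26.6% after NMDA and 7.0%, 8.18% and 7.90% after bicuculline. The difference of 1.54 (SE 0.14, limma adjusted p = 2.26e-04) is taken across the floor, which 1 bicuculline array did not reach. miR-1892 read 12.4%, 13.3% and 13.4% after NMDA and 5.68%, 5.14% and 5.83% after bicuculline. Here too the groups stood apart, but the size depends on the floor, with 0.80 (SE 0.08, limma adjusted p = 2.74e-04) at the floor used and 1.23 at a floor 0.5 times as high. miR-705 read 11.8%, 18.4% and 15.8% after NMDA, and after bicuculline, at 0.995%, 2.36% and 2.10%, it was not well above background on any array. Its bound was at least 2.24-fold (limma adjusted p = 0.00396).

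miR-690 showed 45.1%, 45.1% and 64.1% after NMDA and 3.85%, 6.89% and 7.61% after bicuculline. Its NMDA values lay far above the bicuculline values, of which 1 was well above background, and the difference was 2.76 (SE 0.15, limma adjusted p = 3.54e-05). miR-714 showed 17.9%, 27.7% and 38.5% after NMDA and 0.98%, 2.64% and 3.83% after bicuculline, without a bicuculline array well above background. It was at least 3.97-fold higher after NMDA (limma adjusted p = 0.00207). miR-1897-5p gave 15.6%, 20.1% and 24.5% against 5.71%, 6.95% and 9.79%, with 2 bicuculline arrays well above background and a difference of 1.28 (SE 0.19, limma adjusted p = 0.00305).

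In each of the 15, every NMDA signal lay above every bicuculline signal. NMDA 1 was the lowest of the 3 NMDA arrays in 14 of the 15, and NMDA 3 was the highest in 11. The sizes of these differences can also be read within each slide. On slide 1 (NMDA 1 and 2 against bicuculline 1) and on slide 2 (NMDA 3 against bicuculline 2 and 3) all 15 were higher after NMDA, with 0.79 as the lowest value within a slide. That direction was fixed by the lack of overlap and adds no separate support. miR-689 differed by 3.80 within slide 1 and by 3.58 within slide 2. For miR-494 the values were 1.59 and 1.03. A second probe of the same miRNA, where it was well above background on all arrays of a group, gave the same direction in each case. Some weaker probes of miR-466f-3p, miR-714 and miR-705 lay at the floor and gave a difference of 0. In the untreated control arrays, which were not part of the test, the highest signal of each of the 15 was below its lowest NMDA signal.

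**Figure D2:**
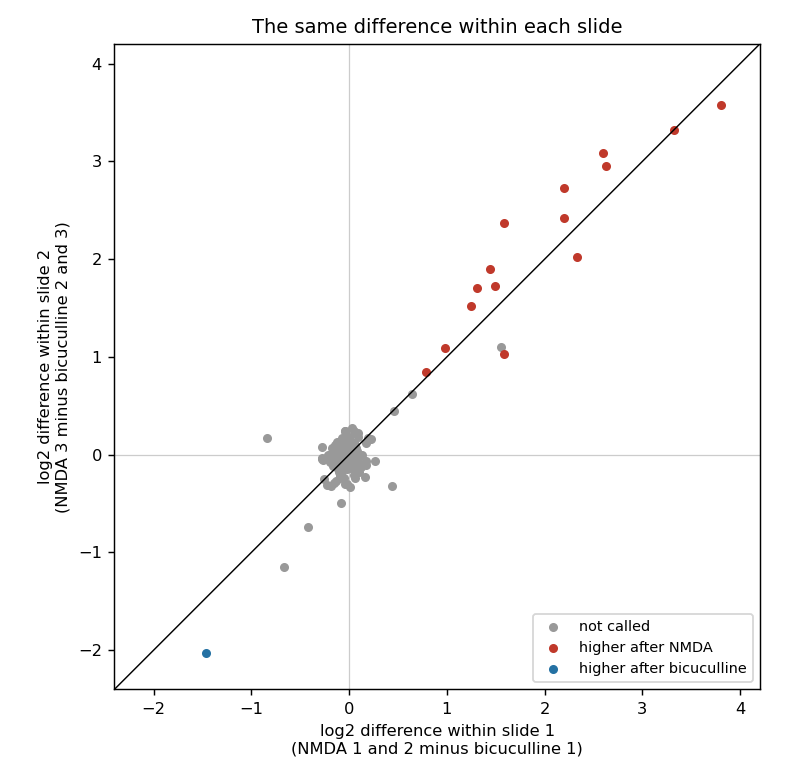
Log2 difference of each of the 181 tested miRNAs within slide 1 (horizontal) and within slide 2 (vertical), with miRNAs called higher after NMDA in red and miR-212 in blue. All 15 red points lie at 0.79 or more on both axes, and miR-212 lies at -1.46 and -2.03. The direction of these points follows from the lack of overlap between the groups.

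miR-212 was the single miRNA higher after bicuculline. It read 50.0%, 49.1% and 60.6% on the bicuculline arrays and 17.5%, 18.9% and 13.4% on the NMDA arrays. The groups were well apart, with a difference of -1.69 (SE 0.15, 95% confidence interval -2.05 to -1.33, limma adjusted p = 2.34e-04), and bicuculline was 3.23-fold above NMDA. Within the slides it was -1.46 and -2.03, and its other probe gave -1.85. Untreated control cultures read 7.66%, 19.7% and 15%, a range that holds the NMDA values.

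miR-132, its partner from the same transcript, read 197%, 183% and 250% after bicuculline and 130%, 165% and 128% after NMDA. Here also no NMDA array reached a bicuculline array, yet the difference of -0.57 (SE 0.15) did not pass the adjusted threshold (limma adjusted p = 0.0785). Its 95% confidence interval ran from -0.93 to -0.21. Its limma adjusted p was 0.0012 scaled to all probes, 0.046 with median scaling, 0.042 after quantile normalization and 0.048 without NMDA 2. In the other 18 of the 22 alternatives miR-132 was not called. Within the slides the difference was -0.42 and -0.74, a direction already fixed by the lack of overlap. Whether both partners differed to an unequal degree was not tested.

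The other activity-regulated miRNAs gave no call. Of the 10 on this list, 7 were tested, 1 was higher after bicuculline and none was higher after NMDA, with a median difference of -0.06. miR-188-5p, at the upper end, read 14%, 17% and 27.6% after NMDA and 9.87%, 15.8% and 20.5% after bicuculline. Those groups overlapped, and the interval of its difference, -0.43 to 1.12, leaves room for a change in either direction. In a fit that blocked on slide, miR-188-5p was called higher after NMDA. miR-134, which restrains dendritic spine growth, could not be tested.

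miR-709 also stood apart without a call. It read 735%, 974% and 1192.8% after NMDA and 289%, 452% and 681% after bicuculline. The groups did not overlap, but the arrays of each group spread by more than for most miRNAs, and the difference of 1.09 (SE 0.32, 95% confidence interval 0.34 to 1.84) had a limma adjusted p of 0.108. Within slides it was 1.55 and 1.11. The limma adjusted p was 0.0092 in a fit that blocked on slide, 0.0020 in a fit that blocked on replicate number, and 0.0153 without bicuculline 3. Control cultures read 448% to 689%, between the lowest bicuculline array and the lowest NMDA array.

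Further down by unadjusted p on the NMDA side were miR-181c (0.23), miR-181a (0.25), miR-30b (0.18) and miR-136* (0.27), none called. miR-181a and miR-181c, which share a seed family and act on mitochondrial and cell death genes in brain injury, differed by less than 1.2-fold. On the bicuculline side, miR-409-3p differed by -0.25, miR-129-5p by -0.31 and miR-433 by -0.23. miR-720, since reclassified as a fragment of a transfer RNA, had signals of 99.97%, 55.3% and 51.5% after NMDA and 118%, 86.0% and 151% after bicuculline. Its difference of -0.81 (SE 0.30, limma adjusted p = 0.253) rested on groups that overlapped. At an unadjusted limma p under 0.05 there were 17 miRNAs higher after NMDA (9.39% of those tested) and 7 higher after bicuculline (3.87%). In all, the NMDA arrays lay above all bicuculline arrays for 18 miRNAs (9.94% of those tested), and the reverse held for 6 (3.31%). The filter let in 21 miRNAs through the NMDA arrays alone and 2 through the bicuculline arrays alone, so these counts favour NMDA by design. Among the 158 well above background on all 6 arrays, 7 were higher after NMDA and 7 after bicuculline at an unadjusted limma p under 0.05.

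**Figure D3:**
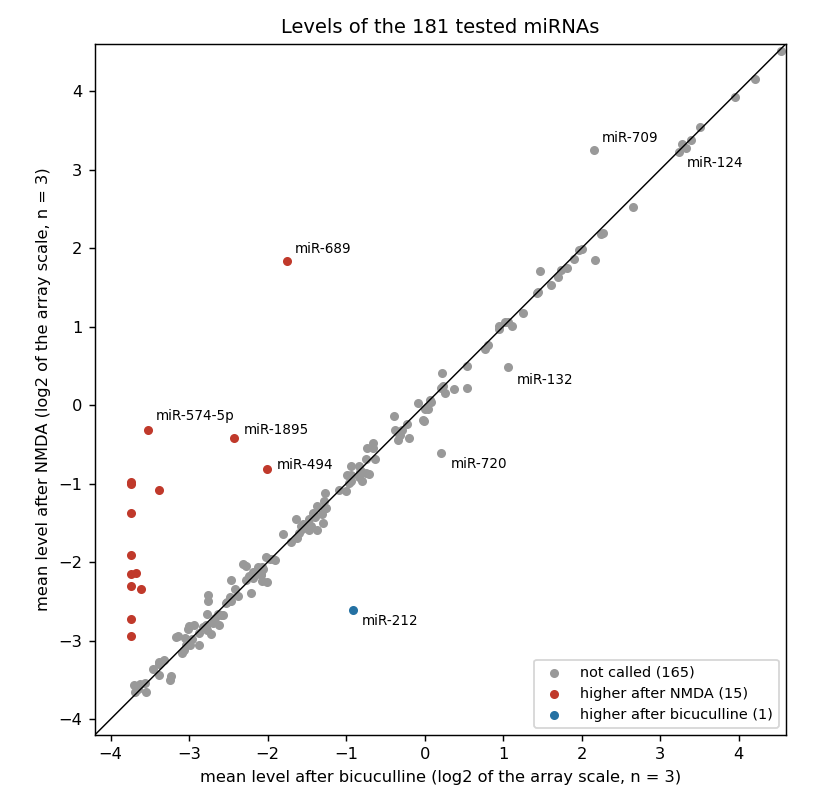
Mean log2 level of each tested miRNA after bicuculline (horizontal) and after NMDA (vertical), n = 3 arrays each, relative to the array scale; the line marks equal levels. The 165 uncalled miRNAs, in grey, follow the line with a median difference of -0.02, whereas the 15 in red lie above it, 7 of them in a column at the floor on the left, and miR-212 in blue lies below it.

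On the scale used, the profile outside these 16 was close to equal after both treatments. Each array was scaled to its own bright probes, so a centre near 0 follows largely from the scaling. The median difference over all tested was -0.48 when scaled to all probes and 0.21 without scaling. For 157 of the 165 uncalled miRNAs the difference was under 20% in either direction. The 95% confidence interval lay within a factor of 1.5 in 146 of them. Their quartiles were -0.07 and 0.05. miR-124, the most neuron-specific miRNA, read 975%, 946% and 889% after NMDA and 932%, 1042% and 871% after bicuculline. These arrays were interleaved, and the difference was -0.01 with an interval of -0.24 to 0.21. For miR-9, which acts in neurogenesis, the interval was -0.40 to 0.49, and for let-7b it was -0.25 to 0.31.

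None of the 13 neuron-enriched miRNAs was called, and their differences ran from -0.31 for miR-129-5p to 0.22 for miR-153. The 9 members of the let-7 family, which share a seed and mark differentiated cells, differed by -0.07 (let-7d) to 0.05 (miR-98). Of 15 miRNAs linked to stress and cell death 12 were tested. They held no call, with a median of 0.01 and a range from -0.10 for miR-21 to 0.25 for miR-181a. miR-34a, a target of p53, read 67.0%, 66.1% and 44.9% after NMDA and 64.3%, 55.3% and 40.4% after bicuculline, with both groups lower on slide 2. In the growth-associated miR-17-92 and related clusters, 7 of 12 were tested without a call, between -0.18 (miR-92a) and 0.09 (miR-19b).

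Apart from miR-494, the Dlk1-Dio3 cluster showed no difference that passed. Of its 73 array entries 44 were tested, 1 was higher after NMDA and none after bicuculline, and 29 of the 44 differences (65.9%) were below 0, beside 53.6% over all 181. The median was -0.02, and the lowest value was -0.25 for miR-485. Strands marked with a star in the array's names, the less abundant product of a hairpin, gave 15 tested members and no call. Of these, 12 were below 0, with a median of -0.04.

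By number in the nomenclature, 4 of the 6 tested among miR-680 to miR-721 were higher after NMDA, and 5 of the 6 tested with a number above 1000, miR-1224 at 0.24 being the exception. The share over all tested was 8.29%. Of these called members only miR-689 and miR-1895 were well above background on all 6 arrays. The others passed the filter only through the NMDA arrays, where they were high, so the counts describe these lists and support nothing about them. The study's list of 19 miRNAs raised by NMDA had 15 tested members, of which 14 were higher here. That list was chosen on these same NMDA arrays and is not independent evidence.

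**Figure D4:**
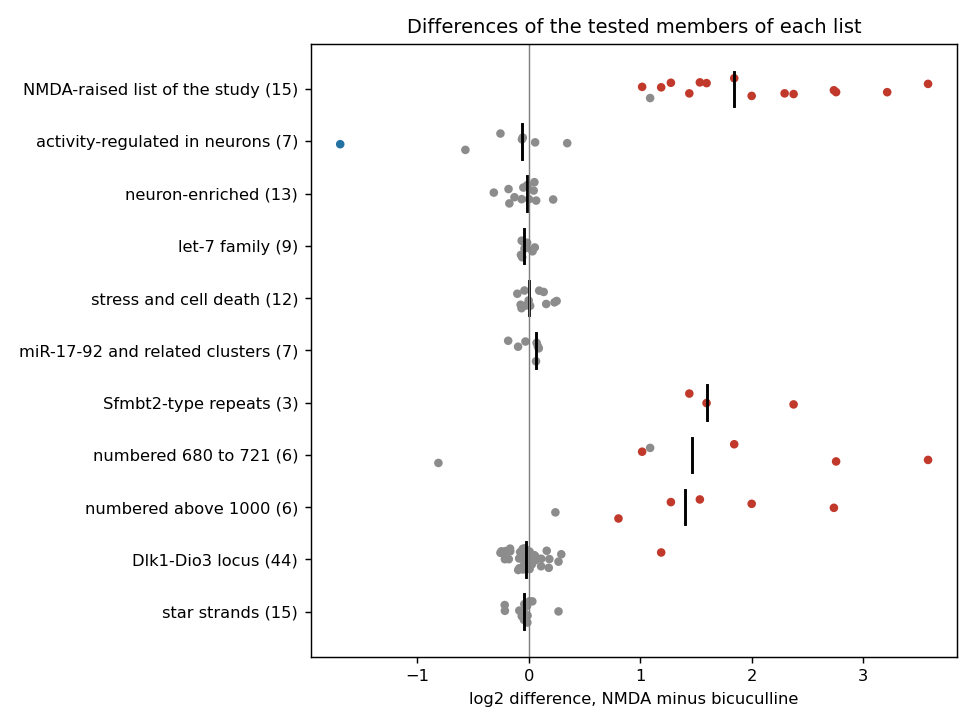
Log2 difference (NMDA minus bicuculline) of the tested members of each list with at least 3 of them, with the number tested in brackets; each point is a miRNA, red if called higher after NMDA, blue if called higher after bicuculline, grey if not called, and the black bar is the median. The lists of neuron-enriched, let-7, stress, miR-17-92 and star-strand miRNAs hold grey points only, while the red points fall in the lists of NMDA-raised, repeat-family and high-numbered miRNAs and, for miR-494, in the Dlk1-Dio3 locus.

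Markers of other cells did not separate the groups. The 6 markers listed as glial, among them the smooth muscle and pericyte markers miR-143 and miR-145, had 2 tested members. These were miR-21 (-0.10) and miR-338-3p (-0.01). The summed signal of that list was 219% to 245% after NMDA and 233% to 260% after bicuculline. Of the 6 immune markers only miR-146a was tested (0.11), with a summed signal of the list of 10.8% to 16.6% after NMDA and 9.26% to 16.6% after bicuculline. Of the 9 vascular, blood and muscle markers only miR-1 was (0.13), and that list summed to 29.1% to 35.0% and 28.3% to 30.8%.

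The filter left 430 mouse miRNAs untested, and 232 of the 611 were well above background on at least 1 of the 6 arrays. Counts of detection depend on the sensitivity of each array. The lowest signal well above background was 8.40%, 6.70% and 5.16% of the scale on the NMDA arrays and 8.19%, 4.40% and 8.44% on the bicuculline arrays. Per array, 181, 205 and 221 mouse miRNAs were well above background after NMDA and 169, 205 and 166 after bicuculline. Of the 181 tested miRNAs, 21 were well above background on all NMDA arrays but not on all bicuculline arrays, and for 2, miR-485 and miR-674*, it was the reverse. There were 5 with all NMDA arrays and no bicuculline array, namely miR-1187, miR-466i, miR-466f-3p, miR-714 and miR-705, and 0 of the opposite kind. These counts use the same signals as the test and add no separate support.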

How the data were processed

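Total RNA was labelled with Cy3 and hybridised to one-colour Agilent miRNA arrays. The authors deposited scanner files with spot intensity values, which Agilent Feature Extraction (10.7.1.1 for slide 1, 10.7.3.1 for slide 2) had background-subtracted without any normalization across arrays. They also deposited processed log2 values, used here only as an alternative. The headers name build mm9, and no coordinates are given. Unflagged spots of a probe were averaged (2314 flagged spots left out over 6 arrays), scaled and floored as described above, and the brightest probe stood for its miRNA. Testing was limited to miRNAs that passed the background criterion on all 3 arrays of either group and used limma 3.58.1 (R 4.3.3), two-sided, without covariates, with Benjamini-Hochberg adjustment over the 181 tested. The 6 arrays limit the precision. In simulated data of 181 miRNAs with 20 changed, 71.2% were recovered at a log2 change of 0.5 and 98.0% at 1. The simulated errors were normal and independent between arrays, without a slide effect or a floor. These shares may therefore be too high for the real arrays.

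The members and lists were chosen with earlier results of these data known. Named are all called miRNAs, up to 5 others per direction by unadjusted p, reference miRNAs, and the extremes of each list with up to 2 further members; miR-362-3p was named after its value was seen. The lists combine named miRNAs (activity-regulated, neuron-enriched, let-7, stress, miR-17-92, cell type markers, the study's NMDA list) and name patterns. Alternatives were other scalings, summaries, floors, filters, background correction, the authors' table, the methods' t-test, replicate and slide blocks, 1 fit over all 9 arrays, and leaving out each array.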

Additional observations from a re-analysis of the deposited data

Results flagged for a closer look

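One signal lay outside the mouse miRNAs of the comparison. The probe of the viral mcmv-miR-M87-1 (mouse cytomegalovirus) had a mean signal of 8.72% of the array scale on the NMDA arrays, with 5.35%, 8.46% and 12.3% on the 3 arrays. On the bicuculline arrays it read 0.101%, 1.12% and 2.35%, and the mean over the control arrays was 0.683%. Only 2 of the NMDA arrays, and 0 of the control arrays, showed it well above background, so it did not enter the test. The cause was not tested.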

How the results depend on the processing

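Under the 22 alternatives miR-212 stayed below 0 and called, between -2.15 and -0.87, and the 15 miRNAs stayed above 0 wherever they were tested, but their sizes moved: miR-714 ranged from 0.41 to 6.12, miR-705 from 0.31 to 2.82, miR-466f-3p from 0.39 to 3.43 and miR-690 from 1.08 to 3.39, the low end being the authors' table except for miR-705 (mean of all probes). The count higher after NMDA was 7 with the total gene signal (miR-1892, miR-1895, miR-1897-5p, miR-1904, miR-494, miR-574-5p, miR-671-5p and miR-714 were lost), 4 of 158 tested when all 6 arrays had to be well above background (11 of the 15 could then not be tested) and 8 with all 611 tested (miR-1895, miR-1897-5p, miR-466f-3p, miR-466i, miR-494, miR-705 and miR-714 were lost). It was 16 with the probe percentile taken over all probes, 14 with normexp, where miR-1892 was lost, 14 with the mean of all probes, where miR-705 was, 15 in the authors' table, where miR-1897-5p was lost and miR-709 gained, and 11 with the methods' t-test (miR-1897-5p, miR-494, miR-705 and miR-714 were lost), which gave 16 higher and 4 lower before adjustment. The count higher after bicuculline was 129 when scaled to all probes, 17 after quantile normalization, and 2 with median scaling or the authors' table. These scalings shifted the median of all differences to -0.48 (all probes) and -0.13 (quantile), and no scaling moved it to 0.21; relative to the shifted median, 5 miRNAs were lower by over 20% with all probes and 12 after quantile normalization, against 5 in the main analysis and 8 with the total gene signal. Leaving out 1 array gave 15 to 19 higher after NMDA (19 without NMDA 1) and 1 to 2 higher after bicuculline (2 without NMDA 2, the other being miR-132). With the replicate number as a replicate block, 16 were higher after NMDA and 1 after bicuculline, miR-709 being the addition. The deviations of arrays of the same number correlated at 0.61, -0.05 and 0.70, and not every array correlated best with its own number. Pairs on the same slide correlated at 0.25 to 0.70 and pairs on different slides at -0.80 to -0.05. The main fit took no account of the slide. With the slide as a block 18 were higher after NMDA, the additions being miR-709, miR-188-5p and miR-1224. Small uncalled differences changed sign. Scaled to all probes, miR-181c was -0.23, miR-181a -0.21, miR-30b -0.28, miR-136* -0.20, let-7b -0.43 and miR-9 -0.42. let-7b was -0.0379 and miR-9 -0.0274 with median scaling, miR-181c was -0.0121 after quantile normalization, and miR-30b was -0.35, let-7b -0.12 and miR-9 -0.0584 with the total gene signal. miR-124 was 0.0018 with the scale set on 9 arrays, 0.21 without scaling, 0.0163 with the mean of all probes, 0.0026 with normexp and 0.05 in the authors' table. miR-9 was -0.0816 with the slide block. Leaving out 1 array, let-7b ranged from -0.0389 to 0.14, miR-9 from -0.11 to 0.21 and miR-124 from -0.0736 to 0.0559. The causes were not tested. Signals near the floor limit the size of differences and can make their limma p too small: 7 of the 16 called miRNAs had all bicuculline arrays at the floor.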

Other observations

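Among the 430 untested mouse miRNAs, 10 passed the background criterion on 2 of the NMDA arrays but on no bicuculline array, and 1, miR-335-3p, showed the reverse. The 10 were miR-1894-3p, miR-1906, miR-466g, miR-483, miR-669f, miR-669n, miR-680, miR-685, miR-706 and miR-712, named after their values were seen. In 9 of them, all but miR-680, every NMDA signal lay above every bicuculline signal. Among the 181 tested this held for 9.94%. The 10 were picked for detection on NMDA arrays only, so that direction was largely fixed and carries no weight. On 1 array, the count was 12 for NMDA and 7 for bicuculline. When NMDA 1 was left out and the filter asked for both remaining NMDA arrays, 203 miRNAs were tested with limma. Then miR-1894-3p, miR-669f, miR-706 and miR-712 were also called higher after NMDA. These added calls entered that test only through the NMDA arrays, where they were high, so their direction supports nothing.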
